A study of Mus musculus with 10 samples.

Results

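The 46 genes described here drive and mark the cell division cycle, and were taken by name from the 55417 named genes of the gene table. They comprise 4 G1 cyclins and their kinase (Ccnd1, Ccne1, Ccne2, Cdk2), 4 transcription factors (E2f1, E2f8, Mybl2, Foxm1), 10 genes of origin licensing and the replicative helicase (Cdc6, Cdt1, Mcm2 to Mcm7, Gins1, Gins2) and 7 of polymerases, clamp and nucleotide supply (Pcna, Pola1, Pole, Prim1, Rrm1, Rrm2, Tyms). A further 3 act in checkpoint, repair and replicated chromatin (Chek1, Brca1, Uhrf1), and 4 are the cyclins of S, G2 and M phase and their kinase (Ccna2, Ccnb1, Ccnb2, Cdk1). The last roles are 10 mitotic kinases, spindle checkpoint and centromere genes (Aurka, Aurkb, Plk1, Bub1, Bub1b, Birc5, Cenpa, Cenpe, Cenpf, Tpx2) and 4 genes of mitotic exit and proliferation (Cdc20, Ube2c, Mki67, Top2a). Licensing and polymerase genes are called replication genes below (17), and the last 3 roles mitotic genes (18). All 46 passed the filter on low counts, as did 19935 of the 55417 named genes.

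RNA sequencing covered 10 libraries of mouse mammary carcinoma cells, 1 per cell line. The parental line 4T1-hHER2 (strain BALB/cfC3H, mammary gland) carried a lentiviral human HER2 and luciferase insert and had 1 library, so its spread is unknown. The other 9 lines came from NOD-SCID-GAMMA (NSG) mice, which lack T, B and natural killer cells: primary 5, 7 and 8 from fat pad xenografts, CTC 1, 3 and 6 from circulating tumour cells, and metastasis 3, 5 and 7 from tumours in the lung. The labels trace all 9, the primary lines included, to circulating tumour cells of NSG mice with orthotopic tumours of 4T1-hHER2-Luc cells, so no derived group is a direct outgrowth of the parental culture. The labels do not say whether the lines of a group are independent isolates, and a p-value here measures the spread between the lines sequenced, which may be technical.

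A dividing cell licenses its replication origins in G1 by loading the MCM helicase, copies its DNA in S phase with the polymerases and the PCNA clamp, and separates the copies in mitosis under cyclin B with CDK1 and the Aurora and Polo kinases. The genes for these steps are transcribed in waves: E2F factors act on many G1 and S phase promoters, and the MuvB complex with B-MYB and FOXM1 acts on many G2 and M phase promoters, often through a CHR element near the start site and CCAAT boxes bound by NF-Y. Their RNA levels are widely used as a readout of proliferation.

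Promoters of 36 of the 46 genes were present in the RefSeq table of windows from 250 bases before to 50 after the start (GRCm38.p6), and 10 were not matched: Ccnd1, Ccne2, Foxm1, Mcm4, Gins1, Gins2, Pole, Ccna2, Aurkb and Tpx2. A pair of replication genes with E2F matches, 1 gene with both kinds of element (Cdk1) and a pair of mitotic genes with CHR matches are printed 5′ to 3′. What part these elements have in any difference between libraries was not tested. Capitals mark the CHR element (TTTGAA), the E2F element (TTTGGCGC, TTTCGCGC, TTTGGCGG or TTTCCCGC) and the CCAAT box (CCAAT), each on either strand. In Mcm6 a pair of E2F matches on opposite strands overlap.
Mcm3, chr1:20820263-20820562, minus strand: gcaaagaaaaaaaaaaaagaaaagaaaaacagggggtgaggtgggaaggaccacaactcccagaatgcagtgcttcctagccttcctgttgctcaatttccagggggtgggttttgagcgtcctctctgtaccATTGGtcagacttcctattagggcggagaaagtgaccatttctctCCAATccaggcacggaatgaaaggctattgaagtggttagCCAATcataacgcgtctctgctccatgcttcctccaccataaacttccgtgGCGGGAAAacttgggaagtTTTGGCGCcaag
Mcm6, chr1:128359656-128359955, minus strand: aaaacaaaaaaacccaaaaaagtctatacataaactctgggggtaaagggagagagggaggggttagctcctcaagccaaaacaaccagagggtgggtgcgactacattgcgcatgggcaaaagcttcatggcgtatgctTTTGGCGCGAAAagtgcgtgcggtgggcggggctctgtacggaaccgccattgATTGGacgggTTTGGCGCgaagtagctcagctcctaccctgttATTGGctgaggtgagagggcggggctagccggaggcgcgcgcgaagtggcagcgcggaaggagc
Cdk1, chr10:69352863-69353162, minus strand: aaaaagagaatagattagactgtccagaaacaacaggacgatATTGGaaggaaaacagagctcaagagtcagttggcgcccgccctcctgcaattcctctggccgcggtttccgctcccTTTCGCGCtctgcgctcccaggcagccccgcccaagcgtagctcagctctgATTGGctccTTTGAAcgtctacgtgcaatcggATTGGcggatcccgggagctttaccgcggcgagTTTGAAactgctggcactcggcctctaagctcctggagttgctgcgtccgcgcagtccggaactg
Plk1, chr7:122159185-122159484, plus strand: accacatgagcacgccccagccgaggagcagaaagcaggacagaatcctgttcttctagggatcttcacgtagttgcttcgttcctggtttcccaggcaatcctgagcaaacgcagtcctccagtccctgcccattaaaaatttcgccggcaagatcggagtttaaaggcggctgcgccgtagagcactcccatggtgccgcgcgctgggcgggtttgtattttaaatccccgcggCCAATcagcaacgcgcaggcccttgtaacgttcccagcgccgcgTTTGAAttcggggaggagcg
Cdc20, chr4:118437294-118437593, minus strand: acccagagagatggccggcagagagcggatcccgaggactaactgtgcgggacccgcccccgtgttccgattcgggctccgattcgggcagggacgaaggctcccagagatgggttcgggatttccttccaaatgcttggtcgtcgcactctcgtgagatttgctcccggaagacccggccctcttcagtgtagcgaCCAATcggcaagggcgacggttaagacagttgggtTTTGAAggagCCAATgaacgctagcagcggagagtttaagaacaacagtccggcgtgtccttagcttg

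A CHR match occurred in 11 of 15 mitotic genes (73.3%) and in 1 of 13 replication genes (7.69%), which was Mcm2, against 20.2% of all genes of the table. An E2F match occurred in 7 of 13 replication genes (53.8%) and in 1 of 15 mitotic genes (6.67%), which was Cdk1, against 2.7% of all genes. CCAAT boxes were common to both, in 14 of 15 mitotic (93.3%) and 10 of 13 replication genes (76.9%), against 41.1% of all genes. A match is a description of the letters and not evidence of a bound factor. The bar chart of promoter elements shows these shares.

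**Figure D1:**
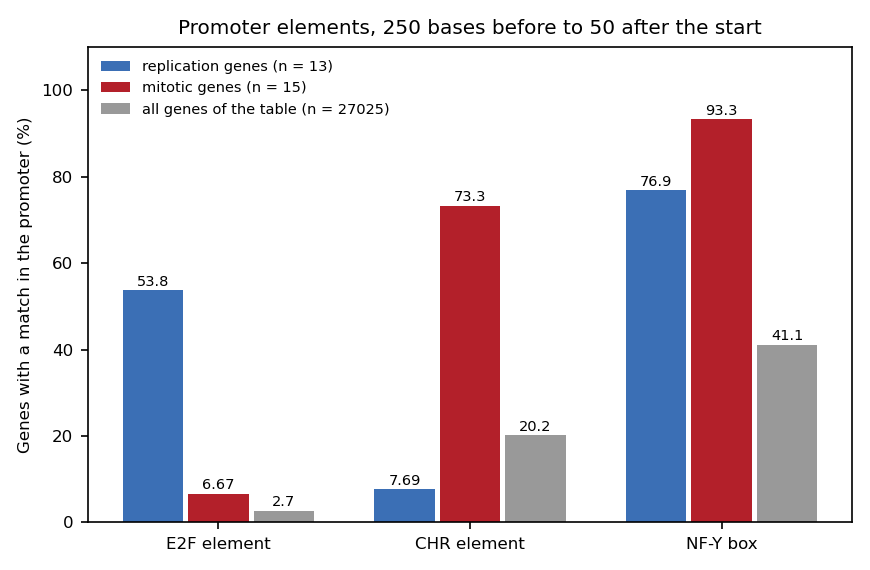
Share of genes (%) with at least 1 match to each element within 250 bases before to 50 after the start, for replication genes, mitotic genes and all genes of the RefSeq table. E2F matches were more frequent in replication genes (53.8%) and CHR matches in mitotic genes (73.3%).

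Total estimated counts per library were 79869760 to 97722716, of which 63275645 to 77476609 fell on named genes. Levels are CPM, counts relative to the named-gene total of the library after TMM scaling. Epithelial markers (Epcam, Cdh1, Krt8, Krt18, Krt7, Krt19) summed to 1210 CPM in the parental library, 2070 to 3460 in primary, 1500 to 2670 in CTC and 1210 to 2910 in metastasis lines. Taken singly, Epcam did not follow this sum: it was at 56 CPM in the parental library, 56.3, 204 and 134 in primary 5, 7 and 8, 16.5, 15.7 and 39.7 in CTC 1, 3 and 6, and 30, 21.9 and 47 in metastasis 3, 5 and 7. Its log2 change from primary lines was -2.45 in CTC (unadjusted p = 0.00182, adjusted p = 0.994) and -1.99 in metastasis lines (unadjusted p = 0.00572, adjusted p = 0.594), and that of Krt7 in metastasis lines was -2.44 (unadjusted p = 0.00384, adjusted p = 0.594). The highest single level among the 6 epithelial markers was that of Krt18, at 1460 CPM. Epcam and Krt7 do not stand for the other markers of that list, whose changes are not given here. Markers of white blood cells reached at most 7.38 CPM in sum, of endothelium 1.31, of lung epithelium 4.33 and of adipocytes 0.055, with 2 of 8, 0 of 4, 2 of 6 and 2 of 4 markers at 0 in every library. The fibroblast list reached 284 CPM in a metastasis line, most of it Pdgfra (269 CPM), and spanned 5.07 to 62 CPM in primary, 11 to 142 in CTC and 14.8 to 284 in metastasis lines. Mitochondrially encoded genes made up 2.24% to 3.02% of the named-gene counts in metastasis lines, against 1.09% to 1.62% in primary, 1.01% to 2.12% in CTC lines and 1.67% in the parental library. What part these differences have in the results was not tested.

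The 46 genes together took 5090 CPM in the parental library, 6420, 9780 and 6570 CPM in primary 5, 7 and 8, 9090, 8540 and 4890 CPM in CTC 1, 3 and 6, and 6550, 2200 and 3450 CPM in metastasis 3, 5 and 7. Every series of 3 values below keeps this order of lines. Metastasis 5 had the lowest level of 10 libraries for 37 of the 46 genes and metastasis 7 for 5, whereas metastasis 3 had the lowest for none. Primary 7 had the highest level for 22 genes and CTC 3 for 11. The lines of a group therefore differed: metastasis 3 lay within the range of the primary and CTC lines in summed level, and CTC 6 lay below every primary line. Less RNA of these genes per cell and fewer cycling cells cannot be told apart in such bulk libraries.

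**Figure D2:**
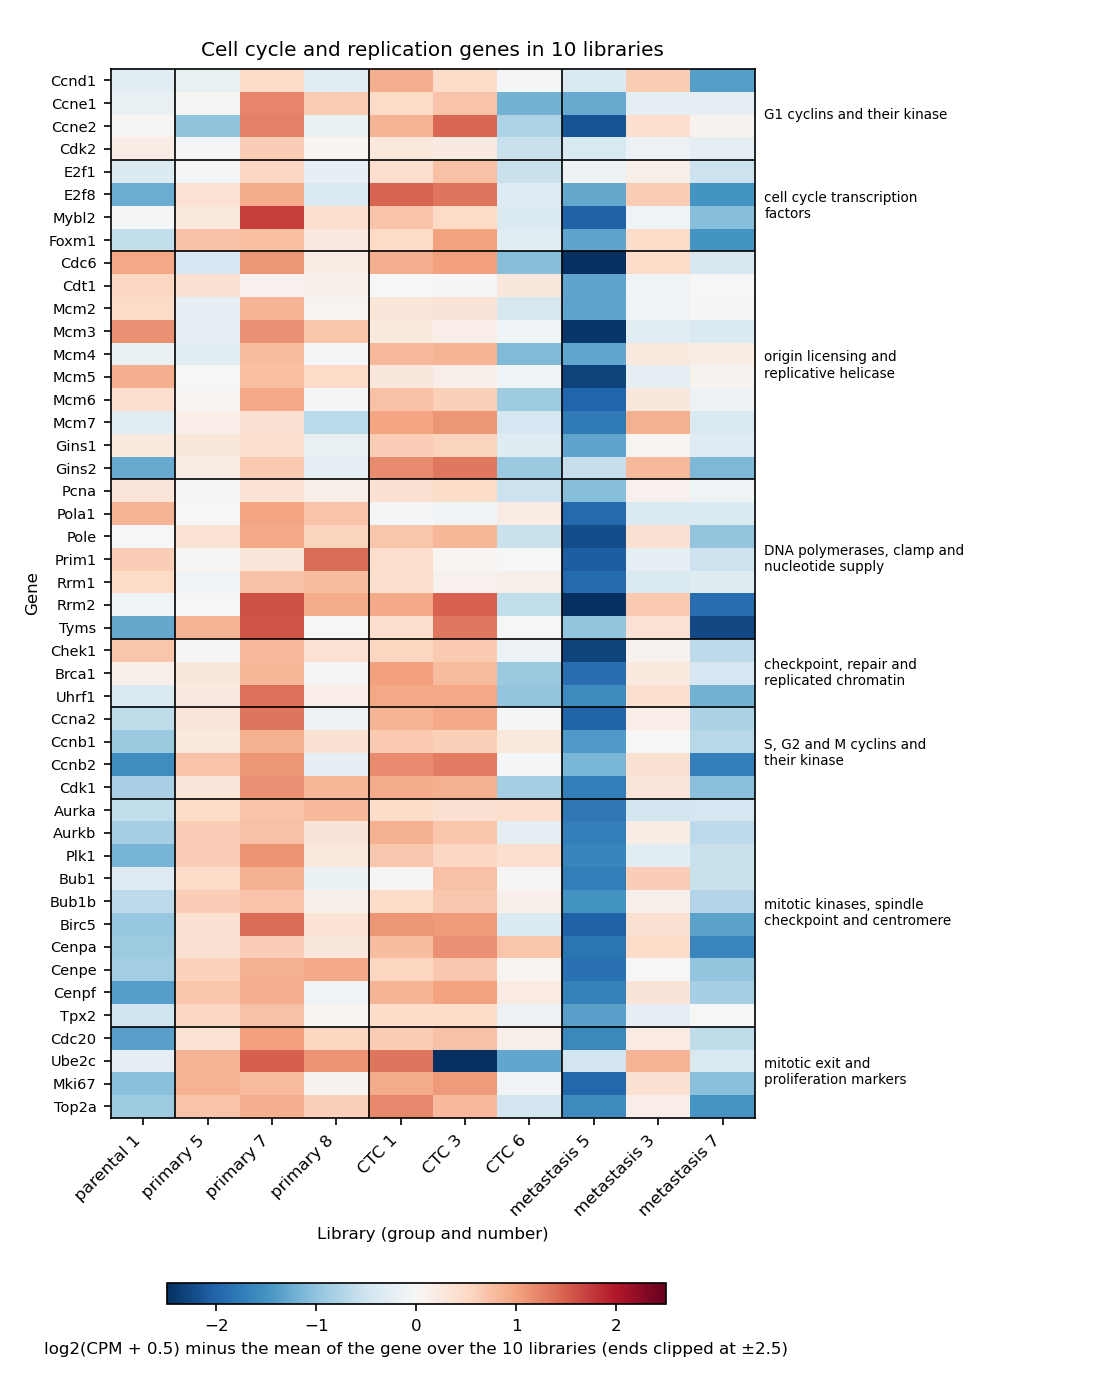
Level of the 46 genes (rows of the map, by role) in 10 libraries (columns), as log2(CPM + 0.5) minus the mean of the gene over the libraries, with red above and blue below that mean. Metastasis 5 is blue for nearly every gene. The parental library is red for some licensing genes such as Mcm3, blue for others such as Gins2, and blue for mitotic genes such as Cdc20.

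Lung metastasis lines were compared with primary lines first. All 46 genes had a lower fitted level in metastasis lines, where 49.5% of all genes tested did, and their median log2 change was -1.09 against 0.01 over all genes tested. None of the 46 passed edgeR's quasi-likelihood test at an adjusted p under 0.05, and none of the 19935 genes did (0%). At an unadjusted p under 0.05, 15 of the 46 were lower, against 4.92% of all genes, and for 19 of the 46 every metastasis line lay below every primary line, against 7.27% of all genes. DESeq2 passed 2 of the 46, Aurka (adjusted p = 0.0241) and Plk1 (adjusted p = 0.0493), and 187 genes in all, while limma-voom passed none and placed 27 of the 46 at an unadjusted p under 0.05. In either direction, the share of all genes at such a p was 8.29% by edgeR and 9.47% by limma-voom. With the title number as a replicate block, more were at an unadjusted p under 0.05, and none passed. The counts were 39 of the 46 with the random block (limma-voom, 16.2% of all genes) and 40 with the fixed block (8.41% of all genes). The fixed block left 1 residual degree of freedom, and it is not established that the numbers pair the lines.

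These counts leaned on single lines. Without metastasis 3, 28 of the 46 were at an unadjusted p under 0.05 (6.6% of all genes in either direction) and 39 had groups that did not overlap. Smaller groups separate more readily, and the share of all genes that did not overlap in this setting was not computed. The count at an unadjusted p under 0.05 was 9 without metastasis 5 (4.31% of all genes) and 5 without primary 7 (4.81% of all genes). The median log2 change ran from -0.77 without metastasis 5 to -1.63 without metastasis 3, and 42 to 46 genes were lower in each of these fits.

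Among the G1 cyclins, Ccnd1 (cyclin D1, which couples growth signals to the cycle) was the most abundant of the 46, with 219 CPM per kb of exon on average. Its level was 789 CPM in the parental library, 833, 1330 and 775 in primary, 1790, 1300 and 931 in CTC, and 1470, 741 and 364 in metastasis lines, so the groups overlapped. The log2 change from primary to metastasis was -0.19 (SE 0.48, adjusted p = 0.915), and it ran from -0.83 to 0.18 when single lines were left out. Ccne1 (cyclin E1, partner of Cdk2 at S phase entry) was scarce: 5.11 CPM in the parental library, 6.01, 14.3 and 9.36 in primary, 8.43, 9.97 and 2.3 in CTC, and 4.96, 2.17 and 4.88 in metastasis lines. Each metastasis line lay below each primary line, with a log2 change of -1.3 (SE 0.6, adjusted p = 0.594). All 4 genes of this role were lower, at log2 changes of -1.3 to -0.19.

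Among the transcription factors, Mybl2 (B-MYB, which works with the MuvB complex on late cell cycle promoters) had the largest difference of the 46. It stood at 49.6 CPM in the parental library, 61, 169 and 68 in primary, 84.2, 71.8 and 39.2 in CTC, and 47.1, 12.1 and 23.9 in metastasis lines. Every metastasis line lay below every primary line, and the log2 change was -1.84 (SE 0.58, adjusted p = 0.594), a 3.59-fold lower fitted level. The smallest difference of this role was that of E2f1, an activating E2F (mean 39.7 ± 9.19 CPM in metastasis against 47.8 ± 13.2 CPM in primary lines, SD, n = 3 each).

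The origin licensing genes had the smallest differences of the larger roles, with a median log2 change of -0.64 over 10 genes. At an unadjusted p under 0.05, 1 gene of the 10 was lower, against 4.92% of all genes. That gene was Mcm3, a subunit of the MCM helicase. Its level was 372 CPM in the parental library, 144, 368 and 270 in primary, 198, 188 and 155 in CTC, and 139, 30.4 and 130 in metastasis lines. The metastasis lines lay below the primary lines, with primary 5 close to metastasis 3, and the log2 change was -1.39 (SE 0.54, adjusted p = 0.594).

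The subunits of this helicase did not move alike. Mcm2 was at 201 CPM in the parental library, 126, 260 and 151 in primary, 178, 180 and 109 in CTC, and 137, 57.5 and 148 in metastasis lines, with overlapping groups and a log2 change of -0.65 (SE 0.42, adjusted p = 0.643). Mcm7 was at 115 CPM in the parental library, 157, 182 and 87.9 in primary, 279, 303 and 104 in CTC, and 261, 40.8 and 107 in metastasis lines. It had the smallest log2 change of the 46, at -0.06 (SE 0.64, adjusted p = 0.983), and leaving out single lines moved it between -0.95 and 0.37. Mcm7 shares exons with Cops6 and Ap4m1 and hosts Mir25 and Mir93, so its counts are uncertain. Differences between subunits were not tested.

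The polymerase, clamp and nucleotide genes had a median log2 change of -1.36 over 7 genes. Of the 7, 3 were lower at an unadjusted p under 0.05, against 4.92% of all genes. Pola1 (the catalytic subunit of DNA polymerase alpha, which starts new strands) was at 109 CPM in the parental library, 60.5, 120 and 99.7 in primary, 59.1, 57.6 and 68.6 in CTC, and 46.6, 15.3 and 47.3 in metastasis lines. Its groups did not overlap, with a log2 change of -1.36 (SE 0.44, adjusted p = 0.594). Rrm2, the regulated subunit of ribonucleotide reductase, spanned 13.4 CPM in metastasis 5 to 323 CPM in primary 7, and metastasis 3 (170 CPM) lay above primary 5 (107 CPM). At the other end of the role, Pcna, the sliding clamp, averaged 213 ± 80.4 CPM in metastasis and 287 ± 39 CPM in primary lines (SD, n = 3 each).

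Chek1 (the kinase CHK1, which answers stalled forks) was at 119 CPM in the parental library, 71.8, 128 and 94.7 in primary, 106, 115 and 65.9 in CTC, and 78, 14.4 and 46 in metastasis lines. The groups overlapped because metastasis 3 lay above primary 5, and the log2 change was -1.09 (SE 0.54, adjusted p = 0.594). Brca1 and Uhrf1, the other two genes of this role, were also lower without passing.

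Mitotic genes were lower in metastasis lines with a median log2 change of -1.17 over 18 genes, against -0.84 over the 17 replication genes. Of the 18, 10 were at an unadjusted p under 0.05 and 11 had groups that did not overlap, against 4 and 5 of the 17 replication genes. Over all genes tested, 4.92% were lower at such a p and 7.27% were lower without overlap. Whether the medians differ was not tested. The smallest p of the 46 was that of Aurka (Aurora A, the kinase of spindle poles), at 60.5 CPM in the parental library, 131, 152 and 164 in primary, 128, 122 and 127 in CTC, and 67.8, 26.5 and 69.2 in metastasis lines. All 3 metastasis lines lay below all 6 primary and CTC lines. The log2 change was -1.45 (SE 0.35, unadjusted p = 0.00245, adjusted p = 0.594), a 2.73-fold lower fitted level.

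Plk1 (Polo-like kinase 1, needed for mitotic entry and spindle assembly) was named after its values were seen. It was at 35.2 CPM in the parental library, 122, 173 and 95 in primary, 127, 114 and 106 in CTC, and 66.3, 24.9 and 53.8 in metastasis lines, again with every metastasis line below the rest of the derived lines. The log2 change was -1.43 (SE 0.38, adjusted p = 0.594). Cenpe, a kinetochore motor also named after its values were seen, had the largest difference among mitotic genes, with a mean of 77.2 ± 49 CPM in metastasis and 227 ± 30.5 CPM in primary lines (SD, n = 3 each) and a log2 change of -1.56 (SE 0.44, adjusted p = 0.594).

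Ccnb1 (cyclin B1, which activates CDK1 for mitosis) was at 70.2 CPM in the parental library, 158, 246 and 174 in primary, 210, 203 and 161 in CTC, and 134, 49.4 and 82.6 in metastasis lines. Its metastasis lines lay below every other derived line, and the log2 change was -1.12 (SE 0.37, adjusted p = 0.594). Cdk1 itself was at 77.7 CPM in the parental library, 169, 302 and 244 in primary, 260, 252 and 76.7 in CTC, and 168, 40.8 and 65.6 in metastasis lines. Metastasis 3 stood just under primary 5, so the groups did not overlap, with a log2 change of -1.38 (SE 0.6, adjusted p = 0.594).

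Cdc20, the activator of the anaphase-promoting complex, was at 53.9 CPM in the parental library, 175, 283 and 202 in primary, 217, 230 and 152 in CTC, and 160, 45.4 and 88.7 in metastasis lines. The metastasis lines lay below the primary lines, and the log2 change was -1.17 (SE 0.43, adjusted p = 0.594). Top2a, the topoisomerase that untangles replicated chromosomes, was at 119 CPM in the parental library, 363, 414 and 331 in primary, 503, 388 and 160 in CTC, and 248, 73.2 and 78.4 in metastasis lines, with a log2 change of -1.47 (SE 0.55, adjusted p = 0.594). Mki67, which encodes the Ki-67 proliferation antigen, was at 108 CPM in the parental library, 404, 386 and 235 in primary, 424, 468 and 211 in CTC, and 289, 56.7 and 107 in metastasis lines. Metastasis 3 lay above primary 8 for Mki67, so the groups overlapped, and the log2 change was -1.18 (SE 0.57, adjusted p = 0.594).

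**Figure D3:**
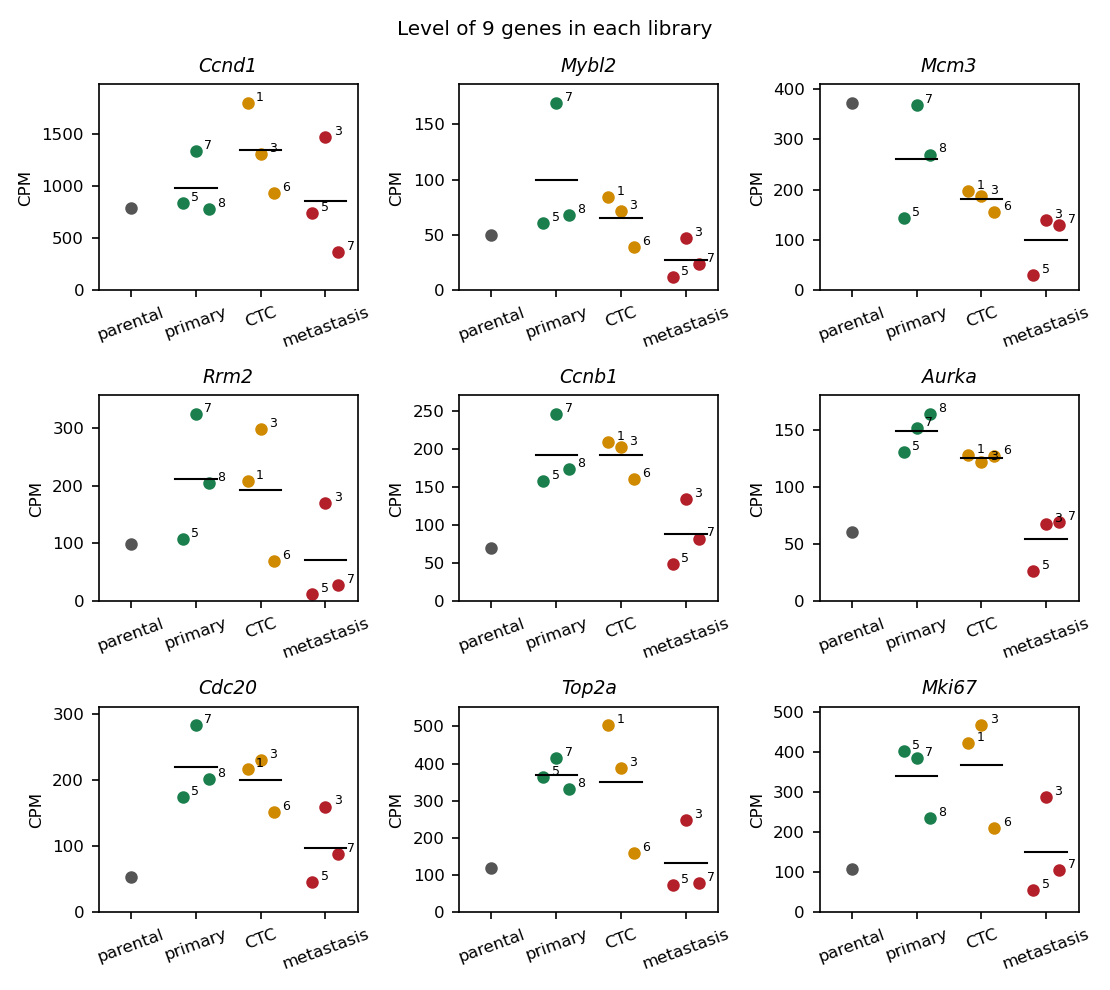
Level in CPM (linear axis from 0) of 9 genes in each library, with 1 point per line, its number beside it, and a bar at the group mean. For Aurka the metastasis lines (26.5 to 69.2 CPM) lie below all primary and CTC lines, whereas for Ccnd1 the groups overlap.

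Another 102 genes of the same pathways were listed by function. Of these, 95 were lower and 7 higher in metastasis than in primary lines, with a median log2 change of -0.89, none passed, and 29 were lower at an unadjusted p under 0.05. Over all genes tested, 49.5% were lower and 4.92% were lower at such a p. All 29 further mitotic genes were lower (median -1.05, from -1.98 for Knl1 to -0.59 for Bub3), as were 23 of 23 fork and nucleotide genes (median -0.74, from -1.42 for Tk1 to -0.13 for Rpa3). All 14 repair and checkpoint genes were lower (median -0.91, from -1.83 for Atm to -0.13 for Chek2) and 13 of 14 origin recognition and loading genes (median -0.88, from -1.3 for Cdc7 to 0.01 for Orc3). The G1 control genes were mixed, with 16 of 22 lower and a median of -0.32, from -1.68 for E2f7, a repressing E2F, to 1.67 for Cdk6, a partner of D cyclins. Cdk6 was at 179 CPM in the parental library, 93.6, 5.24 and 2.87 in primary, 63.4, 166 and 96.6 in CTC, and 102, 103 and 119 in metastasis lines, so its difference came with low levels in primary 7 and 8.

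Replication-dependent histone genes, most of whose RNA ends without a poly(A) tail, were scarce. The labels name polyA RNA but also a total RNA library kit. What part the selection of RNA has in these levels was not tested. Their summed level was 6.16 CPM in the parental library, 14.6, 9.12 and 14.4 in primary, 17.9, 13.9 and 14 in CTC, and 7.33, 2.55 and 2.71 in metastasis lines. Of the 15 listed, 13 were tested, and all 13 were lower in metastasis than in primary lines. Their median log2 change was -1.41, against 0.01 over all genes tested, of which 49.5% were lower. No single histone gene of the list exceeded 4.61 CPM in any library, so these changes rest on low levels.

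Circulating tumour cell lines were compared with the same primary lines, so this comparison shares its reference with the one above. Of the 46 genes 30 were lower, against 50.6% of all genes tested, and their median log2 change was -0.08 against -0.01. None passed edgeR's quasi-likelihood test, as no gene in the table did (0%). None of the 46 was at an unadjusted p under 0.05 in either direction, against 2.54% of all genes lower and 1.51% higher. At such a p limma-voom placed 1 of the 46 and DESeq2 0, against 3.95% and 5.5% of all genes in either direction. The groups did not overlap for Aurka, lower in every CTC line (4.02% of all genes), and for Cenpa, higher in every CTC line (3.13% of all genes). With the title number as a block, 40 (random) and 45 (fixed) of the 46 were lower, with medians of -0.37 and -1.29, but no number links a CTC line to a primary line, and the fixed block left 1 residual degree of freedom.

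Direction in this comparison turned on CTC 6 and primary 7. Without CTC 6, 15 of the 46 were lower and the median was 0.18, and without primary 7, 13 were lower and the median was 0.14. The extremes were Ube2c (log2 change -1.16, SE 0.93, adjusted p = 0.994), which was -3.17 without CTC 1 and -0.62 without CTC 3, and Mcm7 (0.68, SE 0.64, adjusted p = 0.994). Mki67 differed by 0.1 (SE 0.56, 95% interval -1.16 to 1.37), Top2a by -0.08 (SE 0.54, 95% interval -1.28 to 1.13) and Ccnb1 by -0.01 (SE 0.36, 95% interval -0.82 to 0.81). Ccnd1 differed by 0.45 (SE 0.48), Mcm2 by -0.2 (SE 0.42) and Cdk1 by -0.28 (SE 0.59), all with an adjusted p = 0.994.

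Metastasis lines were also set against CTC lines, with the metastasis lines shared with the first comparison. All of the 46 except Ube2c had a lower fitted level in metastasis lines (45 of 46, against 49.6% of all genes), with a median log2 change of -0.99 against 0. None passed edgeR's quasi-likelihood test, where 1 gene of the table did (0.00502%), and DESeq2 and limma-voom passed none of the 46. At an unadjusted p under 0.05, 11 were lower, against 1.69% of all genes, and all 11 were mitotic genes. DESeq2 placed 17 of the 46 and limma-voom 21 at such a p, against 4.77% and 3.65% of all genes in either direction. The groups did not overlap for 10, against 3.85% of all genes.

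Here too single lines weighed on the counts. Without CTC 6, 23 of the 46 were at an unadjusted p under 0.05 (4.29% of all genes in either direction) and 42 did not overlap. Without metastasis 3 these counts were 28 (5.13% of all genes) and 30. The share of all genes that did not overlap in these settings was not computed, and smaller groups separate more readily. The count at an unadjusted p under 0.05 was 5 without CTC 1, 3 without CTC 3, 4 without metastasis 5 and 5 without metastasis 7. In those fits 1.87% to 3.21% of all genes were at such a p. The median log2 change ran from -0.61 without metastasis 5 to -1.55 without metastasis 3. With the title number as a block the count was 23 (random, 4.67% of all genes) and 1 (fixed, 2% of all genes), and the fixed block gave a median of -0.59.

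Cenpa, the histone variant that marks centromeres, had the largest difference from CTC lines. It was at 40.6 CPM in the parental library, 100, 118 and 93 in primary, 131, 170 and 124 in CTC, and 105, 21.3 and 24.5 in metastasis lines, so each metastasis line lay below each CTC line. The log2 change was -1.49 (SE 0.56, adjusted p = 1). Aurka (-1.2, SE 0.35) and Plk1 (-1.26, SE 0.38) had the smallest unadjusted p-values, 0.00708 and 0.00849, and an adjusted p of 1. Ccnb1 (-1.11, SE 0.37), Top2a (-1.4, SE 0.55) and Mki67 (-1.28, SE 0.57) lay nearby, and Ccnd1 (-0.64, SE 0.48), Mcm2 (-0.45, SE 0.42) and Cdk1 (-1.1, SE 0.59) were also lower without passing.

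Ube2c, the ubiquitin-conjugating enzyme that works with the anaphase-promoting complex, departed from the other mitotic genes in 2 CTC lines. It was at 70 CPM in the parental library, 151, 235 and 183 in primary, 212, 8.24 and 33.8 in CTC, and 150, 60.7 and 63.7 in metastasis lines. CTC 3 had the lowest level of the 10 libraries although Cdc20 was at 230 CPM there, and the log2 change from CTC to metastasis was 0.11 (SE 0.92, adjusted p = 1). Ube2c shares exons with Tnnc2, and reads counted under assembled transcripts tied to no gene would lower its value. What part this has in the low values was not tested.

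**Figure D4:**
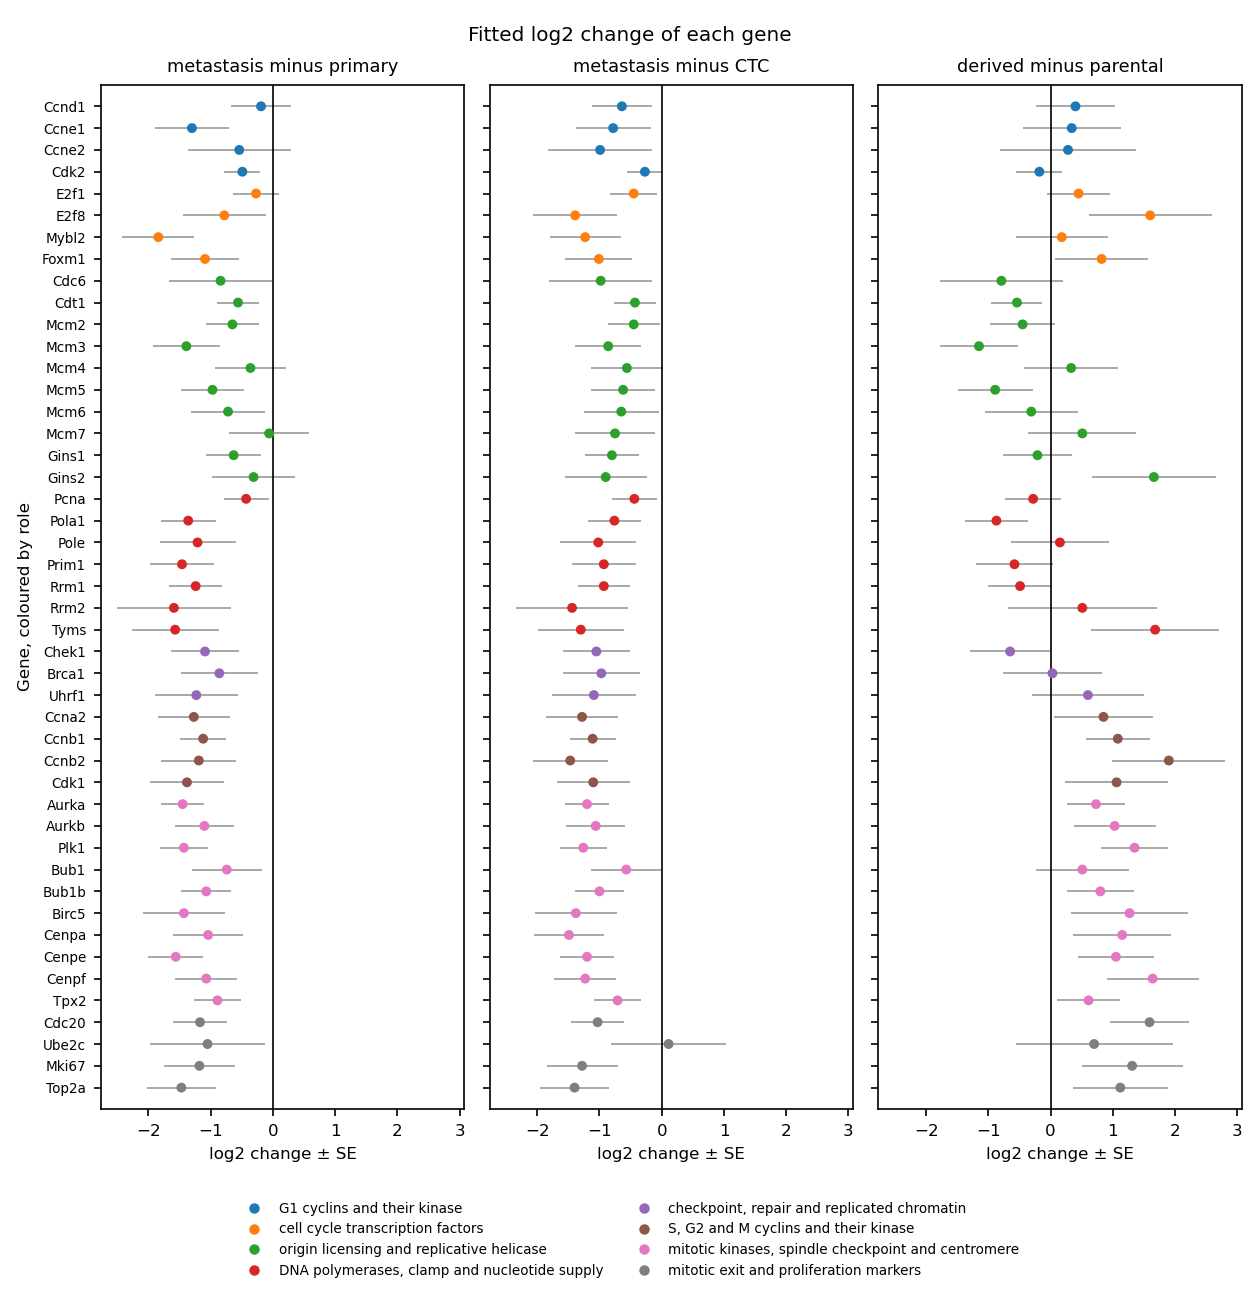
Fitted log2 change of each of the 46 genes with its SE (horizontal bars) in 3 comparisons, coloured by role, on 1 shared axis. All 46 points lie below 0 in metastasis minus primary, and in derived minus parental all 18 mitotic genes lie above 0 while 11 of 17 replication genes lie below.

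Set against the single parental library, the replication and mitotic genes among the 46 differed in direction, and the difference between them was not tested. All 18 mitotic genes had a higher fitted mean in the derived lines (median log2 change 1.07), and 11 of 17 replication genes had a lower one (median -0.31). Over the 46, 33 were higher, against 53.9% of all genes, with a median of 0.51 against 0.1. None passed edgeR's quasi-likelihood test, where 4 genes of the table did (0.0201%), and DESeq2 and limma-voom passed none of the 46. At an unadjusted p under 0.05, 2 were higher, against 5.87% of all genes, and 0 were lower, against 4.45%. The parental library is assumed to vary like the derived ones, and without a second parental library the difference cannot be told apart from the state of that 1 culture.

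The 2 genes were Cdc20 (log2 change 1.59, SE 0.63, adjusted p = 0.482) and Plk1 (1.35, SE 0.54, adjusted p = 0.482), both named here after their values were seen. DESeq2 placed 5 of the 46 at an unadjusted p under 0.05, where 15.1% of all genes were. Leaving out metastasis 5 gave 8 (8.33% of all genes), CTC 6 gave 5 (15.9%) and metastasis 3 gave 4 (8.15%). Without metastasis 3 the median was 0.3. For both genes the parental level lay within the derived range, since metastasis 5 was lower. The largest difference was that of Ccnb2 (cyclin B2), at 24.9 CPM in the parental library, 122, 159 and 63.3 in primary, 169, 179 and 71.2 in CTC, and 96.1, 32.9 and 22.3 in metastasis lines. Its log2 change was 1.9 (SE 0.91, adjusted p = 0.493), and only metastasis 7 lay below the parental library.

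The opposite extreme was Mcm3 (log2 change -1.15, SE 0.62, adjusted p = 0.513), whose parental level of 372 CPM was above every derived line. The parental library also exceeded every derived line for Cdt1 and Mcm5, and 15.4% of all genes did so as these 3 of the 46 did. Gins2, a subunit of the GINS complex of the active helicase, went the other way, with 7.13 CPM in the parental library and 7.91 to 45.2 CPM in derived lines, and 14.1% of all genes had such a parental minimum. Tyms, thymidylate synthase, was also low in the parental library at 7.62 CPM, with only metastasis 7 lower at 3.6 CPM. Mki67 (1.31, SE 0.81), Top2a (1.12, SE 0.76), Ccnb1 (1.08, SE 0.51) and Cdk1 (1.06, SE 0.83) were higher and Mcm2 (-0.45, SE 0.52) lower without passing.

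A score per library, the mean over genes of log2 CPM centred on each gene, put the parental library at 0.23 for replication and -0.87 for mitotic genes, a difference of -1.1. In the derived lines this difference was -0.33 in metastasis 7 and -0.03 to 0.48 in the other 8. Replication and mitotic scores were both lowest in metastasis 5 (-1.81 and -1.63) and both highest in primary 7 (0.81 and 0.97). All 18 mitotic genes lay below their 10-library median in the parental library, as in metastasis 5 and metastasis 7, but only 6 of 17 replication genes did, against 17 and 16 in those lines. The scores are given as a description with no test.

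The other genes of the pathways were also set against the parental library. Of the 102, 58 were higher in derived lines and 44 lower, and none passed. Their median log2 change was 0.11. Over all genes tested 53.9% were higher and the median was 0.1, so the 102 as a whole lay near all genes. Of the 29 further mitotic genes 23 were higher, with a median of 0.41 (from -0.36 for Incenp to 1.93 for Ccnf), against 1.07 for the 18 above. The 23 further fork and nucleotide genes were not lower as a list, with 14 higher and a median of 0.04 (from -1.6 for Fen1 to 1.51 for Pole2). Of the 14 origin recognition and loading genes 8 were lower, with a median of -0.33. Among the 22 G1 control genes 14 were lower, with a median of -0.41 (from -1.41 for Ccnd2 to 1.58 for Tfdp2). The 14 repair and checkpoint genes split into 7 higher and 7 lower, with a median of 0.25.

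**Figure D5:**
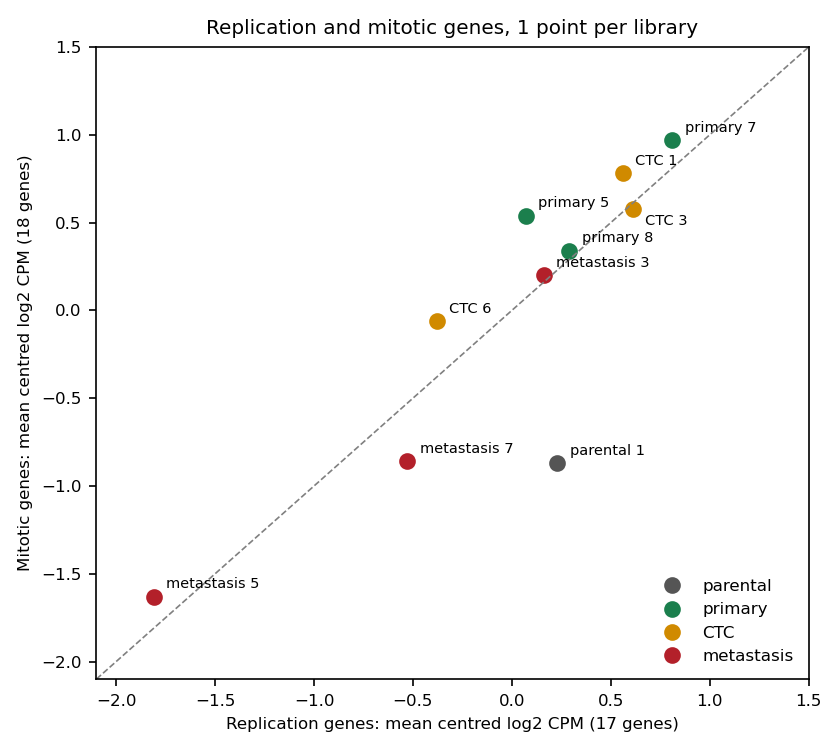
Mean centred log2 CPM of 17 replication genes (horizontal axis) and 18 mitotic genes (vertical axis), 1 point per library, with the dashed line where both are equal. The parental library lies 1.1 below the line, metastasis 5 lies at the low end of it and primary 7 at the high end.

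Per kb of exon, levels spanned a wide range among the 46, with Ccnd1 (219 CPM per kb), Pcna (112) and Cdc20 (86) at the top and Ccne1 (2.54) at the bottom of the means over 10 libraries. Between libraries the widest spread was that of Ube2c, whose highest CPM was 28.5 times its lowest, and then Rrm2 (24.1 times) and Cdc6 (17.7 times), the loader of the MCM helicase. The narrowest were Cdk2 (2.24 times), E2f1 (2.49 times) and Pcna (2.87 times).

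The transcript table gave 1 leading transcript in all 10 libraries for 39 of the 46 genes. Tpx2, a spindle assembly factor, was among the other 7: transcript Tpx2-201 took 91.1% of its counts in the parental library and 12.9% to 40.3% in derived lines. Ccne2-201 took 99% of Ccne2 counts in metastasis 5, where Ccne2 had only 201 counts, whereas Ccne2-202 took 48.2% to 90% in every other library. For Cenpa, the protein-coding transcript Cenpa-205 took 10.5% to 30% of the counts. Cenpa-202, annotated for nonsense-mediated decay, took 13.1% to 52.2%, so the Cenpa levels above are not those of coding RNA alone. StringTie apportions reads among overlapping transcripts, so these shares are estimates. The choice of these genes followed their values. Of the 46, 13 share exons with another annotated gene, Ccna2, Ccnd1, Cdc20, Top2a and Plk1 among them, and their counts are uncertain to that degree.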

How the data were processed

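The tables deposited by the authors hold unscaled estimated counts for genes and for transcripts. The submitters' processing notes list HISAT2 2.1.0, StringTie 2.0.3, DESeq2 1.26.0 and the build GRCm38. The annotation release and the use of strand are not given in the sources used here. Assembled transcripts tied to no gene (17127 of 72544 entries, 19.7% to 22.8% of the counts of a library) were left out. Named genes were tested with edgeR 4.0.16 (R 4.3.3): TMM factors, filterByExpr, 10 libraries in 1 fit of 4 groups, the quasi-likelihood test and Benjamini-Hochberg adjustment at 0.05, over 19935 genes. The 4 comparisons share libraries. The common biological coefficient of variation was 0.606. SE is the absolute log2 change over the square root of F. Scores use log2 CPM with a prior count of 2. The fit was also run on simulated counts with known changes. How many of these it recovered is not given here, so that run does not show what size of change can pass.

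The title numbers 5 and 7 (primary, metastasis) and 3 (CTC, metastasis) recur. Deviations of same-number lines correlated at 0.12 to 0.406 over genes (3 pairs). Over the other 24 pairs the median was -0.0493 and the highest was 0.506, for CTC 6 with metastasis 7. These values do not establish that the numbers pair the lines, and no label explains the numbers. The numbers were used as a block only among the alternatives. The random block correlation was 0.484. Alternatives were other scalings, no filter, all entries, DESeq2 1.42.0, limma-voom (limma 3.58.1), derived lines alone, the block, transcript sums and leaving out each derived line.

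Full values are given for the gene with the smallest p of each role in metastasis against primary, for the extremes of each comparison, and for Mki67, Top2a, Ccnd1, Mcm2, Cdk1 and Ccnb1. Others were named after their values were seen. The 46 genes, the lists and these rules were chosen with earlier results of these data known. Gene models are GENCODE M21 and promoters RefSeq GRCm38.p6.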

Additional observations from a re-analysis of the deposited data

How the results depend on the processing

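Scalings, the filter and transcript sums left the count of the 46 genes that passed at 0 in all 4 comparisons, as derived lines alone did in the 3 that this fit can make, and DESeq2 alone passed any (2, metastasis against primary). Of 1302 single-gene values under alternatives, over 67 gene results, 1267 kept direction and side of the threshold, 33 turned direction and 2 passed only there. The cause of the changes was not tested.

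Genes of the table that passed in metastasis against primary were 187 by DESeq2, 1 with the random block and 0 to 1 when single lines were left out. In CTC against primary DESeq2 passed 66. In metastasis against CTC it passed 28, no filter, all entries and the fixed block gave 0, and leaving out lines gave 0 to 1. In derived against parental, all entries gave 42, DESeq2 673, limma-voom 23 and the random block 12. With the number as a fixed block, the median of the 46 was -1.8 in metastasis against primary and -1.29 in CTC against primary. It was -0.59 in metastasis against CTC. None of the 46 passed with either block.

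In CTC against primary the genes lower ranged from 13 to 38 when single lines were left out. Over the same fits the log2 change of Mybl2 ranged from -0.86 to 0.02, Chek1 from -0.22 to 0.2, Ccnb1 from -0.13 to 0.21, Cdc20 from -0.28 to 0.09, Mki67 from -0.11 to 0.39, Top2a from -0.43 to 0.27, Mcm2 from -0.4 to 0.17 and Cdk1 from -0.53 to 0.11. Ccnb1 was 0 with all entries and 0.01 with limma-voom. Mki67 was -0.35 with the random and -1.62 with the fixed block, and the fixed block gave -1.17 for Ccnd1 and -1.12 for Mcm7. In metastasis against primary, Ccnd1 ranged from -0.83 to 0.18 and Mcm7 from -0.95 to 0.37. In metastasis against CTC, Ube2c ranged from -0.45 to 2.12, and Ccnd1 was 0.16 with the fixed block. In derived against parental, Mybl2 ranged from -0.02 to 0.3, and the median over all genes was 0.36 with no filter.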
